A study of Mus musculus with 4 samples.

Results

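The genes described here are 10 members of the MHC class I antigen presentation pathway: H2-K1, H2-D1, B2m, Tap1, Tap2, Tapbp, Psmb8, Psmb9, Nlrc5 and Abcb9. They were chosen by name, with earlier results of these data known. Every probe set whose only annotated gene symbol was one of these names was taken. That gave 20 of the 28898 probe sets with a single symbol, for 7 of the 10 genes, among 17097 genes so named and 45037 probe sets in all. B2m, Tap1 and Tap2 had no such probe set and their signals are not analysed here. The samples were thymocytes at the CD4+CD8+ double-positive stage, at which developing T cells have both coreceptors, isolated by cell sorting from C57BL/6 mice that received no treatment. Of the 4 arrays, 2 were labelled hCD2-iCre x Gfi1fl/fl, in which Cre recombinase under human CD2 regulatory sequences, active in lymphocytes, acts on a floxed Gfi1 gene, and 2 were labelled WT. Gfi1 is a transcriptional repressor of blood cells, and the study compared the transcription profiles of the 2 genotypes. The labels give no age, say nothing of a recombinase in the wild-type mice, and do not say whether the replicates were separate animals, so p-values measure the spread between these samples, which may be technical.

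In the class I pathway, proteasomes that carry the inducible subunits encoded by Psmb8, Psmb9 and Psmb10 cut cytosolic proteins, the TAP1-TAP2 transporter moves the peptides into the endoplasmic reticulum, and tapasin, encoded by Tapbp, holds the transporter beside a heavy chain while a peptide is loaded. H2-K1 and H2-D1 encode the classical heavy chains, which reach the cell surface with beta-2 microglobulin, the product of B2m. Surface class I is known to be low on double-positive thymocytes and to increase as they mature. Nlrc5 encodes the transactivator of class I genes, which acts through factors bound to the X and Y boxes of their promoters, and Abcb9 encodes a relative of the TAP chains that transports peptides into lysosomes.

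The heavy chain gene promoters share letters that the Abcb9 promoter lacks, and a link between these letters and the signals was not tested. Shown are the promoters of the genes whose signals changed, H2-K1, H2-D1 and Abcb9. Each is a RefSeq window of 300 bases, 250 before the start site and 50 after it, on build GRCm38.p6, at chr17:34000298-34000597 (minus strand) for H2-K1, chr17:35262844-35263143 (plus strand) for H2-D1 and chr5:124095749-124096048 (minus strand) for Abcb9. Capitals mark the Y box letters ATTGG, the X2 letters TGACG and the interferon-response letters GAANNGAAA on either strand.
H2-K1: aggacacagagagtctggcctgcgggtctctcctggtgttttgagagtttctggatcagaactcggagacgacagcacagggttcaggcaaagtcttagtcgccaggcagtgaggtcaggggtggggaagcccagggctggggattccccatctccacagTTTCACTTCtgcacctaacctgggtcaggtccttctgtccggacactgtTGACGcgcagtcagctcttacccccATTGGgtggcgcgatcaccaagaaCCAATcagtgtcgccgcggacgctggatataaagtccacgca
H2-D1: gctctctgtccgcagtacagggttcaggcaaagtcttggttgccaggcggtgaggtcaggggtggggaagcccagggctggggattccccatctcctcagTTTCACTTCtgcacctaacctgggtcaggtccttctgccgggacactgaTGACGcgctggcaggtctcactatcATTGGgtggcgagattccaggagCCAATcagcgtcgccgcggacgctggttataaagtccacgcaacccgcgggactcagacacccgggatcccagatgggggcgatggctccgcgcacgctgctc
Abcb9: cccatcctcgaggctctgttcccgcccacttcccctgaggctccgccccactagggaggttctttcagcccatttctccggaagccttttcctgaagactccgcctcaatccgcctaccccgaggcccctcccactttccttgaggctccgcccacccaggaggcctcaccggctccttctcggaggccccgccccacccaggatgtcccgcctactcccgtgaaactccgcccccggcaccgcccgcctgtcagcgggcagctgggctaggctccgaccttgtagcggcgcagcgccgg

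In the H2-K1 and H2-D1 windows, 211 of 239 aligned positions were identical (88.3%). Both held TGACG followed by ATTGG on the coding strand, a reversed Y box, and 1 reversed match to GAANNGAAA. The match began 90 bases before the start site in H2-K1 and 150 bases before it in H2-D1. H2-K1 has a second RefSeq start site, with a window at chr17:34000284-34000583, and from that site the match began 104 bases upstream. The B2m window, at chr2:122147437-122147736 (plus strand), held the same pair of boxes. In all 3 the Y box began 25 bases after the X2 box began, as the stretches from one box to the other show.
H2-K1: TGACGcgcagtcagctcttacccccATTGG
H2-D1: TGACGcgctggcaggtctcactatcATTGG
B2m: TGACGacctccggatctgagtccggATTGG
Of 32851 RefSeq promoter windows, 37.4% held ATTGG, 20.8% TGACG and 7.52% GAANNGAAA, while 31 (0.0944%), of 27 genes, held TGACG and ATTGG at this spacing on either strand. The spacing and the letters GAANNGAAA were chosen after the windows had been seen. Since the spacing was read from the windows of H2-K1, H2-D1 and B2m, all 3 are among the 27 by construction. Of the 27, 19 were measured, with a median difference of 0.085 between labels, and H2-K1 and H2-D1 were the 2 called. Besides H2-K1 and H2-D1, the third histocompatibility gene among the 27, H2-M3, differed by 0.19 ± 0.24 (SE, log2; limma, adjusted p = 0.983). The Psmb9 and Tap1 windows, which face opposite ways, shared 275 of their 300 bases and held X2 and Y box letters, the Tapbp window held 2 Y boxes and no X2, and the Psmb8 and Abcb9 windows held neither. The letters GAAANNGAA, another form of the interferon-response element (8.56% of windows), were found in 1 member's window, that of B2m. FOXO letters GTAAACA (3.65% of windows) were found in none of the 8 members' windows searched. Nor was AAATCA, the letters used for GFI1 (14.0% of windows). The shorter run AATC, which lies within AAATCA, occurs in the H2-K1, H2-D1 and Abcb9 windows printed above. Its share over all windows was not counted. A match or its absence describes these letters in these windows only.

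The signal of the targeted gene was not lower on the arrays labelled hCD2-iCre x Gfi1fl/fl. Gfi1 had signals of 11.47 and 11.32 on the arrays labelled as knockout, against 10.17 and 10.08 on those labelled as wild type (log2 RMA signals, as are all signals below). It was higher, not lower, by 1.27 ± 0.14 (SE; limma, adjusted p = 0.00781). A probe set outside the deleted part checks nothing about the labels, and the sources used here do not give its position, so each direction below is one between arrays as labelled. Array medians lay between 3.53 and 3.55.

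Between the labels, H2-K1 and H2-D1 rose and Abcb9 fell, while Tapbp, Psmb8, Psmb9 and Nlrc5 did not pass the test. With each gene represented by its brightest probe set, 2 of the 7 measured members were called higher and 1 lower at an adjusted p of 0.05, where 0.942% of all 17097 genes were called higher and 0.170% lower (1.11% in all). The median difference of the 7 was 0.44, and that of all genes -0.02. The knockout-labelled arrays lay above both wild-type-labelled ones for 5 members and below them for 1, while 34.5% of all genes did not overlap (16.0% upward and 18.5% downward). Of the 7, 5 had an unadjusted p under 0.05, as did 8.29% of all genes. The members were chosen with earlier results of these data known, so these counts describe them and are no test of the set. The calls of H2-K1 and H2-D1 may not be independent, since their probe sets may bind other transcripts. In bulk RNA, a change in the share of a cell type and a change in RNA per cell cannot be told apart.

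**Figure D1:**
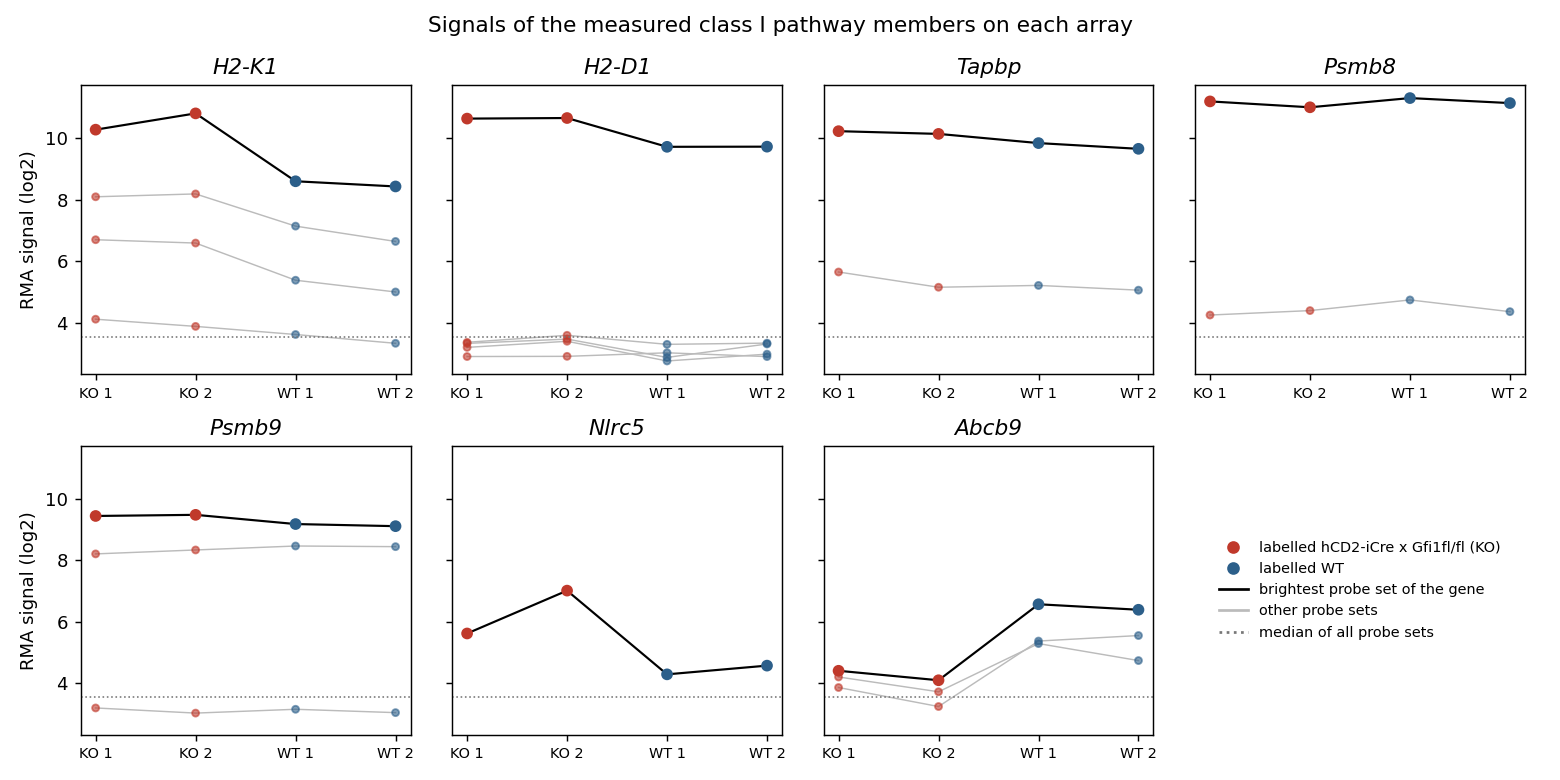
RMA signals (log2, y axis) of the 7 measured members on the 4 arrays (x axis), with knockout-labelled arrays in red and wild-type-labelled arrays in blue. Each line joins the values of 1 probe set, black for the brightest of its gene and grey for the others. All 4 H2-K1 probe sets were higher on the knockout-labelled arrays and all 3 Abcb9 probe sets lower, and the dotted line marks the median of all probe sets.

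Heavy chain genes showed the increases. H2-K1, the K-locus heavy chain, had signals of 10.27 and 10.80 on the knockout-labelled arrays, against 8.59 and 8.43 on the wild-type-labelled arrays. Both knockout-labelled arrays stood above both others, with a gap far wider than the spread within either label. The difference was 2.03 ± 0.22 (SE), a 4.08-fold difference in signal (limma, adjusted p = 0.00780), the 100th highest of all genes. The other 3 H2-K1 probe sets also lay apart without overlap, by 1.25, 1.45 and 0.52, and none of them was called in the fit of all 45037 probe sets (limma, adjusted p = 0.136, 0.0777 and 0.496). With the 4 probe sets averaged, the gene differed by 1.31 and was no longer called (adjusted p = 0.0570).

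H2-D1, the D-locus heavy chain, had signals of 10.63 and 10.65 on the knockout-labelled arrays, against 9.72 and 9.72 on the wild-type-labelled arrays. Replicates of each label nearly coincided, and the labels did not overlap. The difference was 0.92 ± 0.14 (SE), a 1.90-fold difference in signal (limma, adjusted p = 0.0343). Of its other 4 probe sets, with differences between -0.06 and 0.43, 3 lay below the median of all probe sets on every array, and the mean over its 5 probe sets gave 0.35 (adjusted p = 0.655). The gene was also not called when wild-type replicate 1 (adjusted p = 0.200) or wild-type replicate 2 (0.185) was left out, or without the intensity trend in the prior variance (0.0550). Apart from 1 H2-D1 probe set, the heavy chain probe sets carry the suffix that Affymetrix gives to sets whose probes may bind other transcripts, so the signals of the 2 genes are uncertain as measures of either alone.

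Abcb9, the lysosomal peptide transporter, moved the other way. Its brightest probe set gave 4.41 and 4.10 on the knockout-labelled arrays, against 6.57 and 6.39 on the wild-type-labelled arrays. Another gave 3.86 and 3.25 on the knockout-labelled arrays, against 5.37 and 5.55 on the wild-type-labelled arrays. The remaining one gave 4.21 and 3.72 on the knockout-labelled arrays, against 5.29 and 4.74 on the wild-type-labelled arrays. In each of the 3, both knockout-labelled arrays stood below both wild-type-labelled ones. Abcb9 fell by 2.23 ± 0.25 (SE, log2; limma, adjusted p = 0.00920), 4.68-fold, the 10th lowest difference of all genes, and the other probe sets differed by -1.91 (adjusted p = 0.0297) and -1.05 (adjusted p = 0.283). The call of the gene held in each of the 12 alternatives, with adjusted p between 0.000131 and 0.0469.

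Over all 20 member probe sets, 2 were called higher, of H2-K1 and H2-D1, and 2 lower, both of Abcb9, in the fit in which 0.664% of all 45037 probe sets were called higher and 0.102% lower (0.766% in all). Their median difference was 0.29, and that of all probe sets -0.01. Of the 20, 4 lay below the median of all probe sets on every array. Those without overlap between labels were 11 upward and 4 downward, while 34.7% of all probe sets did not overlap (16.8% upward and 17.9% downward). An unadjusted p under 0.05 was found for 11 of the 20 and for 7.64% of all probe sets. These counts too describe members chosen with earlier results known.

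**Figure D2:**
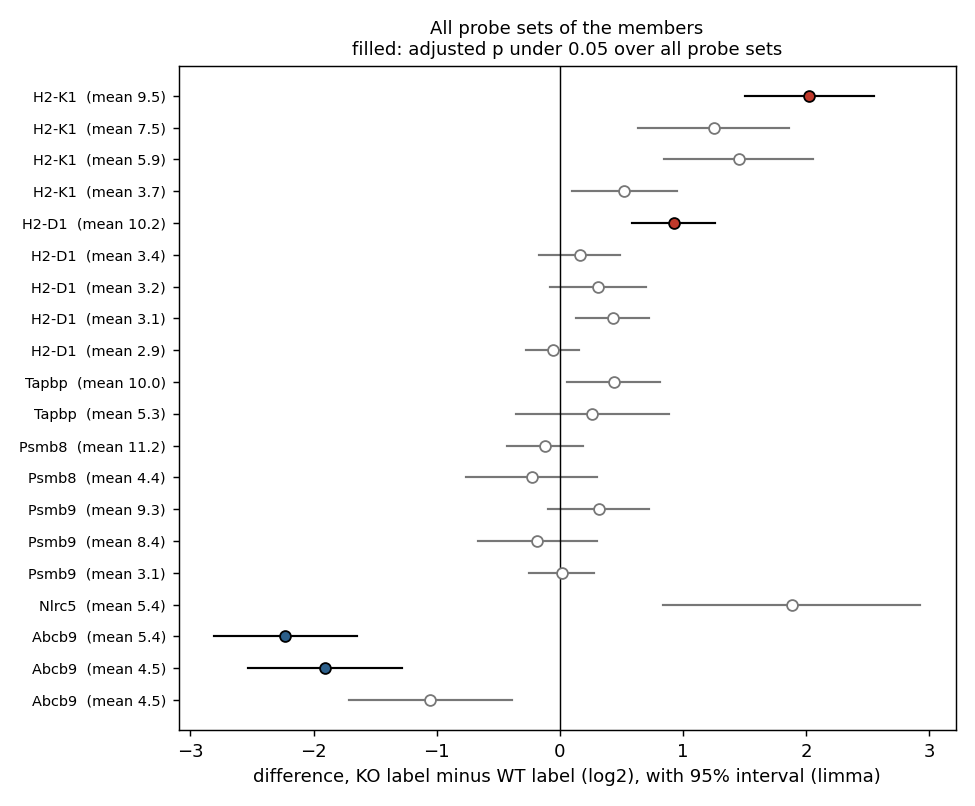
Differences between labels (knockout minus wild type, log2, x axis) with 95% limma intervals for the 20 probe sets of the members, each row giving the gene and the mean signal of the probe set. Filled points passed an adjusted p of 0.05 over all probe sets: 1 of H2-K1 and 1 of H2-D1 upward, and 2 of Abcb9 downward.

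Nlrc5, the class I transactivator, was the member whose knockout-labelled arrays disagreed most. It had signals of 5.62 and 7.01 on those arrays, against 4.29 and 4.57 on the wild-type-labelled arrays. Both lay above the wild-type-labelled pair, but their SD was 0.99. The difference of 1.88 ± 0.44 (SE; 95% interval 0.83 to 2.94) did not pass over all genes (limma, adjusted p = 0.161). Without knockout replicate 1, with 1 knockout-labelled array left, it was 2.58 and passed (adjusted p = 4.64e-05), and without knockout replicate 2 it was 1.19 (0.0641). A single probe set read this gene, so no other could be set beside it.

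Tapbp, the tapasin gene, had signals of 10.22 and 10.14 on the knockout-labelled arrays, against 9.84 and 9.65 on the wild-type-labelled arrays. The labels did not overlap, by a difference of 0.44 ± 0.16 (SE; 95% interval 0.06 to 0.81) that did not pass over all genes (limma, adjusted p = 0.470). Its other probe set gave 0.27 ± 0.26 (SE) with overlapping arrays.

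The inducible proteasome subunit genes Psmb8 and Psmb9 did not pass the test. Psmb8 had signals of 11.192 and 11.001 on the knockout-labelled arrays, against 11.300 and 11.138 on the wild-type-labelled arrays, and these overlapped. Its difference was -0.12 ± 0.14 (SE), with a 95% interval of -0.44 to 0.20 that does not reach a 2-fold change (limma, adjusted p = 0.972). Its other probe set, at -0.23, overlapped as well. Psmb9 had signals of 9.44 and 9.48 on the knockout-labelled arrays, against 9.18 and 9.11 on the wild-type-labelled arrays, a difference of 0.32 ± 0.17 (SE; 95% interval -0.08 to 0.71; adjusted p = 0.766). Its second probe set was lower on both knockout-labelled arrays, by -0.18 ± 0.20 (SE), and the third lay below the median of all probe sets on every array. The 2 brighter probe sets of Psmb9 thus differed in direction.

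**Figure D3:**
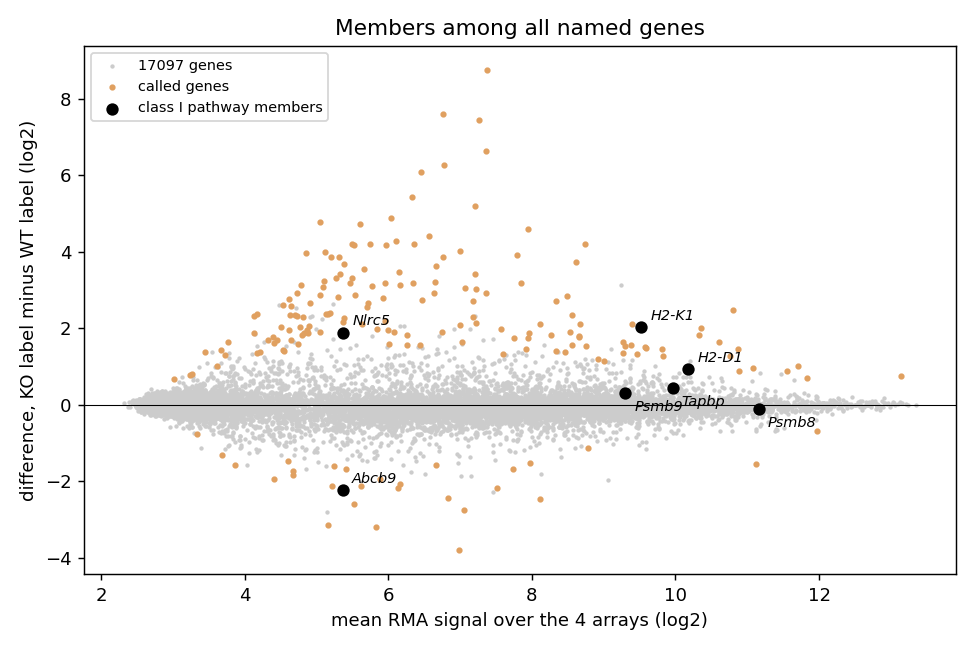
Difference between labels (knockout minus wild type, log2, y axis) against the mean signal over the 4 arrays (log2, x axis) for all 17097 named genes in grey, the 190 called genes in orange and the 7 members in black. H2-K1 and H2-D1 lie among the called genes above 0 and Abcb9 among those below it, while Psmb8, Psmb9 and Tapbp lie within the grey band.

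On chromosome 17, Psmb9, Tap1, Psmb8 and Tap2 stand next to each other between H2-DMb1 and H2-Ob, class II genes (RefSeq order, GRCm38.p6). The 3 nearest measured coding genes on each side of every measured member, 36 genes other than members, were read as a description chosen after the data were seen. None of the 36 was called (limma, 5 at an unadjusted p under 0.05, against 8.29% of all genes), and the lowest adjusted p was 0.169, for Ccdc62 near Abcb9. Around H2-K1 the 6 neighbours differed by between -0.30 and 0.0039, and around Abcb9 by between -0.49 and 0.12. Among the neighbours of H2-D1 were other heavy chain genes, H2-Q1 and H2-Q4, with differences of 0.60 and 0.71 (adjusted p = 0.391 and 0.383).

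Beyond the members, none of the 96 measured genes on 7 further lists of related genes was called in either direction (limma, 11 higher and 2 lower at an unadjusted p under 0.05), and their median difference was 0.05. Of all genes, 8.29% had an unadjusted p under 0.05, the share to set beside the counts of each list below. Of 17 other class I and class I-like heavy chains, none passed and 13 differences lay above 0 (median 0.10). Differences above 0 were found for 44.6% of all genes and for 60.4% of the 96. Of the 17, 7 lay below the median of all probe sets on every array. Their largest differences were 0.72 for H2-T10 and 0.71 for H2-Q4, genes of nonclassical heavy chains (adjusted p = 0.163 and 0.383). H2-T10 had signals of 9.80 and 10.04 on the knockout-labelled arrays, against 9.19 and 9.21 on the wild-type-labelled arrays, without overlap.

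Of 8 further genes of the inducible proteasome, its activators and assembly, none passed (2 higher at an unadjusted p under 0.05; median 0.17). Psme2, which encodes the beta subunit of the PA28 activator, had signals of 10.54 and 10.38 on the knockout-labelled arrays, against 9.80 and 9.48 on the wild-type-labelled arrays, a difference of 0.82 ± 0.17 (SE; adjusted p = 0.115). Psmb10, the remaining inducible catalytic subunit gene, had 10.17 and 10.01 on the knockout-labelled arrays, against 9.63 and 9.28 on the wild-type-labelled arrays, a difference of 0.64 ± 0.18 (SE; adjusted p = 0.277). In neither did the arrays overlap. None of 15 constitutive 20S core subunits passed (none at an unadjusted p under 0.05), with differences between -0.32, for Psma6, and 0.20 and a median of -0.01. After Psma6, the largest in size was -0.30 for Psmb7.

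Of 18 genes of peptide loading and trimming, none passed (1 higher at an unadjusted p under 0.05; median 0.09). Hspa5, the chaperone BiP gene, differed by 0.59 (adjusted p = 0.297) and Lap3, a leucine aminopeptidase gene, by 0.45 (adjusted p = 0.797). Of 7 other transporters of the ABCB subfamily, none passed (1 higher at an unadjusted p under 0.05). Abcb10, a mitochondrial transporter gene, and Abcb4, a phospholipid transporter gene, differed by 0.76 and -0.49 (adjusted p = 0.522 and 0.723), and 3 of the 7 lay below the median of all probe sets on every array.

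Of 21 measured regulators of class I transcription, none passed (3 higher at an unadjusted p under 0.05; median 0.02). Irf9, the DNA-binding part of the type I interferon transcription complex, had signals of 8.28 and 8.51 on the knockout-labelled arrays, against 7.30 and 6.91 on the wild-type-labelled arrays. Irf1, which binds interferon-response elements of class I promoters, had 9.03 and 9.31 on the knockout-labelled arrays, against 8.19 and 7.91 on the wild-type-labelled arrays. Neither gene's arrays overlapped. The differences, 1.29 ± 0.24 and 1.12 ± 0.21 (SE), stood just outside the threshold (limma, adjusted p = 0.0701 and 0.0794). Irf9 passed with the dimmest 50% of genes left out (0.0486), without knockout replicate 1 (0.0103) and without knockout replicate 2 (0.0477), and Irf1 without knockout replicate 1 (0.00976). Irf9 had an adjusted p of 0.116 with the replicate block, and of 0.154 and 0.327 with wild-type replicate 1 or 2 left out. Irf1 had 0.122 with the replicate block, and 0.206 and 0.350 with wild-type replicate 1 or 2 left out.

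**Figure D4:**
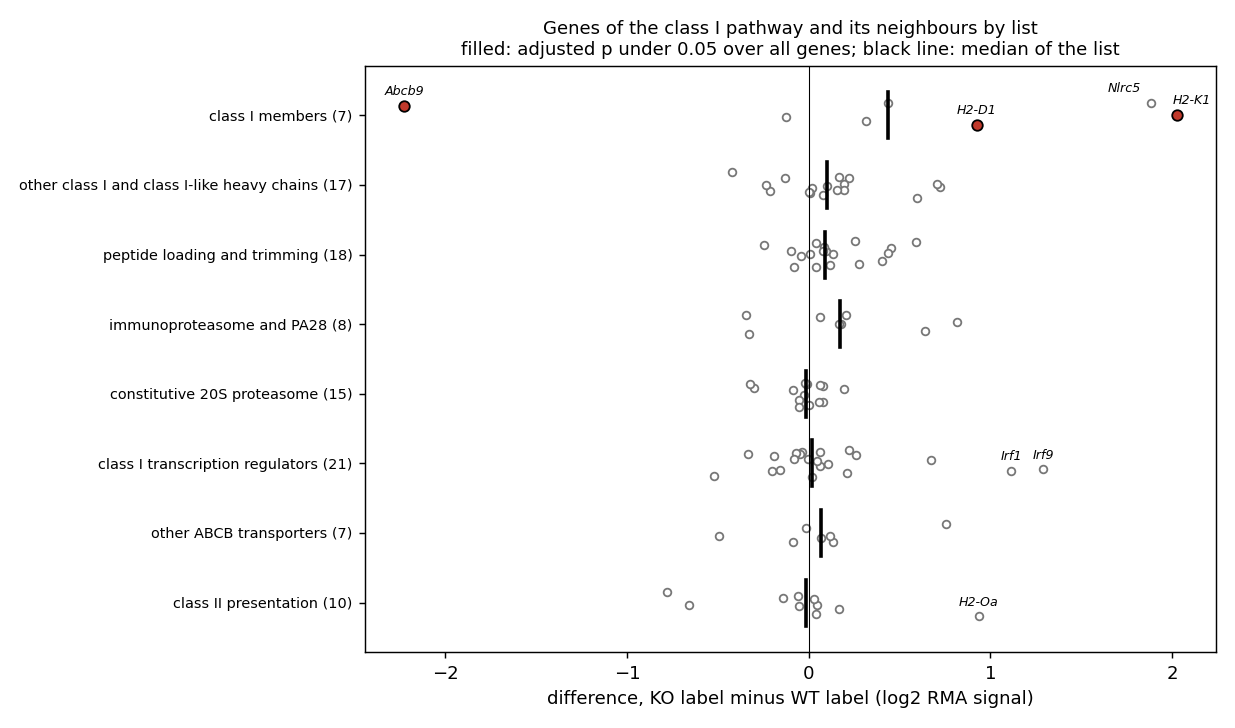
Differences between labels (knockout minus wild type, log2 RMA signal, x axis) of single genes by list, with the number measured in brackets and the median of each list as a black bar. Filled points passed an adjusted p of 0.05 over all genes: H2-K1, H2-D1 and Abcb9. The other lists hold open points alone, and their medians lie between -0.01 and 0.17.

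Of 10 measured class II genes, which mark antigen-presenting cells, none passed (1 higher and 2 lower at an unadjusted p under 0.05), and their mean signals were 4.78 and 4.85 on the knockout-labelled arrays, against 4.90 and 4.83 on the wild-type-labelled arrays. The largest differences were 0.94 for H2-Oa, a chain of H2-O, and -0.78 for H2-DMa, a chain of H2-DM (limma, adjusted p = 0.510 and 0.373). H2-Oa rested on 1 array: it was 1.46 without knockout replicate 2 (adjusted p = 0.00498) and 0.41 without knockout replicate 1 (0.761). Of 17 myeloid and dendritic markers 1 was called, Ctss, which encodes cathepsin S and differed by 4.59 (limma, adjusted p = 0.000906). The mean of the other 16 was 3.81 and 3.82 on the knockout-labelled arrays, against 3.84 and 3.64 on the wild-type-labelled arrays. Of 50 measured markers on 5 lists (myeloid and dendritic, B cell, thymic epithelial, erythroid, and NK and gamma-delta T cells), Ctss was the one called, and 29 lay below the median of all probe sets on every array. B cell markers had mean signals of 3.79 and 3.58 on the knockout-labelled arrays, against 3.93 and 3.79 on the wild-type-labelled arrays. NK and gamma-delta T cell markers had 3.15 and 3.33 on the knockout-labelled arrays, against 3.01 and 2.99 on the others. Thymic epithelial markers had 4.34 and 4.23 on the knockout-labelled arrays, against 4.16 and 3.93 on the others. Erythroid markers had 5.05 and 5.07 on the knockout-labelled arrays, against 5.16 and 5.48 on the others. These means hide the spread of Hba-a1, at 8.72 and 10.45 on the knockout-labelled arrays, against 7.35 and 10.17 on the others. In both labels its replicate 2 was the higher. Below that median on all arrays were 8 of 17 myeloid and dendritic, 5 of 7 B cell, 7 of 12 thymic epithelial, 2 of 5 erythroid and 7 of 9 NK and gamma-delta T cell markers. Against 8.29% of all genes, an unadjusted p under 0.05 was found for 2, 1, 3, 1 and 3 markers of these lists, in the same order. Besides Ctss, these were Flt3 (0.52), Cd79b (-1.23), Epcam (1.68), Cldn4 (1.26), Krt8 (-0.30), Car2 (-1.87), Nkg7 (0.99), Il2rb (0.54) and Klrd1 (0.24), given as log2 differences, and none of these 9 passed over all genes (limma, adjusted p of at least 0.140). Without overlap, 4, 1, 5, 0 and 4 markers of the 5 lists, in the same order, lay upward, against 16.0% of all genes. Downward lay 0, 2, 2, 2 and 2, against 18.5% of all genes. The part of these cells in the class I differences was not tested. The 9 measured markers of double-positive thymocytes had mean signals of 11.15 and 11.05 on the knockout-labelled arrays, against 11.23 and 11.40 on the wild-type-labelled arrays. Of them, 1 was called, Dntt, which was lower by -0.69 (limma, adjusted p = 0.0413). Of the 9 differences, 8 lay below 0 and 1 above, where 44.6% of all genes lay above 0. Without overlap, 5 markers lay downward and 1 upward, against 18.5% and 16.0% of all genes. An unadjusted p under 0.05 was found for 2, Dntt and Themis, and Themis differed by -0.46 (limma, adjusted p = 0.327).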

How the data were processed

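Per the labels' protocols, the authors made biotinylated cRNA from total RNA of sorted cells with a 3' IVT kit, for 1 array per sample. The submitters' processing notes name RMA and Affymetrix Expression Console 1.1. The deposited values are log2 RMA signals per probe set, between 2.19 and 13.5, used without further normalization. RMA compresses differences at both ends of its range. No scanner files were used here, so background was not judged per probe set.

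Probe sets were named from GEO's platform annotation, and 28689 of the 28898 with a single symbol matched RefSeq GRCm38.p6 by Entrez ID, with 0 symbols updated. Of the others, 551 had several symbols and 15588 were not listed. The probe set of highest mean over the 4 arrays stood for each gene, with no filter on dim values. The 2 labels were set against each other with limma 3.58.1 (lmFit and eBayes, R 4.3.3), with an intensity trend, no covariate and Benjamini-Hochberg adjustment, two-sided, over all 17097 genes, and again over all 45037 probe sets. The residual degrees of freedom were 2, and the prior added 5.00 for genes. With 2 arrays per label, their number limits the precision. Known changes in simulated data served to test the script.

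The members, lists and tests were chosen with earlier results of these data known. Text names all members, Gfi1 and, of each further list, called genes or else the 2 with the largest difference. Others (H2-M3, Ccdc62, H2-Q1, Dntt, Themis and the named markers of other cells) were named after their values were seen. Of 117 genes on the 7 further lists, 96 had a named probe set. The alternatives tried were a fit with a replicate block, centring on the median, a further quantile normalization, filters on the dimmest 30% and 50%, other priors, the mean over a gene's probe sets, probe sets with a single symbol, and leaving out each array. Promoter windows were searched on both strands in Python 3.11.15 and aligned with Biopython 1.88, and figures were drawn with matplotlib 3.10.9.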

Additional observations from a re-analysis of the deposited data

Results flagged for a closer look

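Outside the 20 probe sets of the members, 5 probe sets were annotated to H2-K1 and H2-D1 together with a further gene, so that none could be given to 1 gene, and the report's comparisons do not use them. On 4 of the 5 both knockout-labelled arrays stood above both wild-type-labelled ones, which is why they are listed here. Their mean signals were 10.66, 10.09, 7.25 and 6.92 on the knockout-labelled arrays, against 9.77, 9.14, 5.84 and 5.95 on the wild-type-labelled arrays. The differences were 0.89, 0.94, 1.41 and 0.97, and none passed over all probe sets (limma, adjusted p = 0.0630, 0.0770, 0.122 and 0.228, each with an unadjusted p under 0.05). The fifth, below the median of all probe sets on every array, differed by -0.06. Of all 45037 probe sets, 16.8% did not overlap upward and 7.64% had an unadjusted p under 0.05.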

How the results depend on the processing

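Over the 12 alternatives for genes, the 7 members kept the direction of their differences, and Abcb9 its call. Fewer than 2 member genes were called higher with a prior without intensity trend (1), without wild-type replicate 1 (1) or 2 (1), and with the mean over a gene's probe sets (0). Over the fits that leave out 1 array the count lay between 1 and 3, and Nlrc5 was the gene gained. Of the 2 member probe sets called higher, 1 was called with the replicate block and 0 without the trend. Leaving out 1 array gave counts of 0 to 2, of which 0 or 1 were among those 2: that of H2-D1 was lost each time, and without knockout replicate 1 that of Nlrc5 was gained. Of the 2 called lower, 1 was called with the replicate block and 1 without the trend, and leaving out 1 array gave 0 to 2. The H2-D1 probe set lost its call in 6 of 12 alternatives, with the replicate block (adjusted p = 0.0602), without the trend (0.0757) and without each array in turn (0.0979 to 0.248), and the dimmer called Abcb9 probe set in 5 (at most 0.102). The brightest Abcb9 probe set was not called when wild-type replicate 1 was left out (adjusted p = 0.0526), nor that of H2-K1 without the trend (0.0683) or wild-type replicate 2 (0.0638). Among further pathway genes, 1 was called higher without the dimmest 50%, and 0 to 3 when 1 array was left out. The smallest differences changed sign: 1 dim H2-D1 probe set was at 0.00517 without wild-type replicate 1, within a range of -0.12 to 0.01 when 1 array was left out, and 1 dim Psmb9 probe set at -0.070 without knockout replicate 1 and -0.04 without wild-type replicate 2, within a range of -0.070 to 0.10. The causes of these changes were not tested. Fits without 1 array set 1 against 2 and take the spread from the other label, so the lone array is assumed to vary alike. Replicate numbers recur in both labels, with no statement of what a number shares. Across genes, the difference between replicates 1 and 2 correlated between labels (r = 0.30), a hint from the data and not the design, and the replicate block changed no call of a member gene. RMA values carry no detection calls, so for dim probe sets no depth or background bound could be given.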
